A study of Mus musculus with 8 samples.

Results

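This account concerns 9 genes of extracellular matrix, tissue repair and the cytoskeleton in stroke-associated myeloid cells (SAMC), a cluster of brain and pial leukocytes that the authors named after stroke in mice. The genes are Fn1, Thbs1, Postn, Ecm1, Pdpn, Htr2b, Emp1, Vim and Capg, 9 of the 30406 genes shared by all libraries. They were picked by name because several of them had been seen raised in SAMC, so their height in SAMC against other cells is described here and not tested. Levels are unique molecular identifiers (UMIs, counted mRNA molecules) summed over the cells of 1 cluster in 1 library and scaled to 1000000 UMIs of that sum (CPM). A sum entered a comparison when it held at least 30 cells.

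The 8 libraries came from adult C57BL/6 mice and held leukocytes sorted as CD45iv-CD45+, that is, cells with CD45 on their surface that a CD45 antibody injected into the blood had not reached. Control libraries of brain parenchyma, dura mater and pia mater (1 each) stood against libraries taken after transient middle cerebral artery occlusion (MCAO), in which a filament blocks and then frees the artery: brain at 24 h (2 libraries, called replicates 1 and 2), dura and pia at 24 h (1 each), and brain at 72 h (1). The study calls its controls naive in one place and sham-operated in another, and its reporting summary says that the experiment was repeated and the mice pooled, with a number of mice per tissue and not per library, so the spread between libraries may be technical in part. Every group other than brain at 24 h was a single library. SAMC made up 1044 of 32457 annotated cells, of which 301 and 120 lay in the brain 24 h replicates, 485 in the brain at 72 h and 95 in the pia at 24 h, and these 4 libraries carry the SAMC values below. The other 4 held 1 SAMC (brain control), 8 (dura control), 9 (dura 24 h) and 25 (pia control).

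Fibronectin (Fn1), thrombospondin 1 (Thbs1), periostin (Postn) and extracellular matrix protein 1 (Ecm1) are secreted proteins of the extracellular matrix. In healing tissue a provisional matrix rich in fibronectin forms first, thrombospondin 1 can activate latent TGF-beta, and periostin binds integrins and takes part in collagen assembly. Podoplanin (Pdpn) is a membrane mucin that binds CLEC-2 on platelets, Htr2b is the serotonin 2B receptor, which couples to Gq and is known from microglia in the brain, and epithelial membrane protein 1 (Emp1) is a tetraspan membrane protein. Vimentin (Vim) builds intermediate filaments, and CapG (Capg) caps actin filaments in macrophages.

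Of the 9 genes, 7 matched a RefSeq table of promoter windows (GRCm38.p6, 250 bases before to 50 after a start site) in 9 windows, and Fn1 and Thbs1 had no entry. The bases before the start site are shown, leaving out any that GENCODE places in an untranslated region, for Htr2b, Ecm1 and Emp1, the members whose windows hold TGANTCA, a looser form of the AP-1 motif TGA(C/G)TCA, and for Postn, the member that went the other way from the other matrix genes between 24 h and 72 h. The lines run 5′ to 3′ on the gene's strand, and capitals mark TGANTCA and, on either strand, TATAAA and the GC box GGGCGG.
Htr2b, chr1:86111981-86112230: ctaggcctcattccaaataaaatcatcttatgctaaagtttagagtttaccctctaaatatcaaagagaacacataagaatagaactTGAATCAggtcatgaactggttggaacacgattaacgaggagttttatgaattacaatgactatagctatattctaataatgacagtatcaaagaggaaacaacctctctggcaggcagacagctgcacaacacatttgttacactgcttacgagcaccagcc
Ecm1, chr3:95739570-95739819: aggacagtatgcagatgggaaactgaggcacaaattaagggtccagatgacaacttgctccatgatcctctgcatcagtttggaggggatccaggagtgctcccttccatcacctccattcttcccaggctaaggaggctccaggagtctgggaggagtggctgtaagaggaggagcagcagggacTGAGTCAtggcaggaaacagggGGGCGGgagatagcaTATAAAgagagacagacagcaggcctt
Emp1, chr6:135362708-135362903: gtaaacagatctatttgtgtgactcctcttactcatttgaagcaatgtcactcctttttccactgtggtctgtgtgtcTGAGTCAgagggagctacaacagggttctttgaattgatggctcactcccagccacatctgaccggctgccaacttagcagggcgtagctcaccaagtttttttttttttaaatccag
Postn, chr3:54360857-54361106: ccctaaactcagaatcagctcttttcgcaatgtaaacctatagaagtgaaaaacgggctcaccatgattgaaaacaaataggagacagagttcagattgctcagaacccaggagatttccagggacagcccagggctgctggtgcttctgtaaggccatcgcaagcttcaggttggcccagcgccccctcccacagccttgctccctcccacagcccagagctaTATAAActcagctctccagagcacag
Htr2b and Ecm1 are read from the minus strand and Emp1 and Postn from the plus strand. In the GENCODE annotation of the same build the Htr2b stretch overlaps no exon and lies within Psmd1, a gene on the opposite strand, the Ecm1 and Postn stretches overlap no gene there, and the Emp1 stretch lies in an intron of Emp1. By the gene spans listed for this build, however, every stretch shown lies inside its own gene. Postn and Emp1 each have another window, not shown, in which none of these motifs was found. TGANTCA was found in 3 of the 9 windows and in 7.81% of 32851 windows of all genes, and it reads alike on both strands. It began 163 bases before the start site in Htr2b, 64 in Ecm1, and 145 and 25 in Emp1, where the nearer one lies in an untranslated exon and is not shown. TATAAA, searched on both strands, was found in 3 windows (Ecm1, Postn, Vim) against 13.6% of all windows, GGGCGG in 3 (Ecm1, Emp1, Pdpn) against 35.7%, CACGTG in 1 (Pdpn) against 7.15%, an NF-kappaB motif in 1 (Vim) against 8.46%, and the CArG box in 0 against 1.63%. A match describes letters in the window and says nothing on the factor.

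Libraries held 6591898 to 20754181 UMIs, and annotated cells had library medians of 1083 (brain 24 h replicate 2) to 2505 UMIs (brain 72 h). The brain 72 h and dura 24 h libraries were made with kit version 3 and the others with version 2. Brain 24 h replicate 2 and brain 72 h had a list of 31053 genes and the others a list of 32285. Pairs of libraries shared 0 to 32 cell barcodes. The SAMC markers of the authors differed widely between libraries: Spp1 (osteopontin) stood at 106398, 35312, 35227 and 16576 CPM of SAMC in brain 24 h replicates 1 and 2, pia 24 h and brain 72 h, while Fabp5 stood at 17.3, 1096, 36.5 and 7654 CPM and Gpnmb at 10.8, 402, 141 and 2707 CPM. The macrophage marker Lyz2 within SAMC stood at 315, 1433, 13479 and 16136 CPM in the same order. The border macrophage markers Pf4, Lyve1 and Mrc1, those of the CAM clusters, had medians of 214, 0 and 6.73 CPM in SAMC. They were highest in SAMC of the pia at 24 h, at 1772, 132 and 379 CPM. The cluster annotated Granulo_1 carried the granulocyte markers of the fixed list unevenly. Ly6g was at 0 in 6 of its 7 libraries, and the medians of S100a8, S100a9 and Retnlg were 447, 42.1 and 3.19 CPM, against 112607, 47332 and 16181 CPM in Granulo_2, whereas Hp had a median of 699 CPM, between the 17.2 CPM of the macrophage clusters and the 2814 CPM of Granulo_2. Of the monocyte markers, Ccr2, Plac8 and Vcan had medians of 688, 1406 and 165 CPM in Granulo_1 and 1.65, 254 and 0 CPM in Granulo_2, and Ly6c2 was alike in both, at 522 and 509 CPM. It is called the Granulo_1 cluster below, with no cell type implied.

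Set beside the other myeloid clusters, the 9 genes did not share 1 pattern. Htr2b and Postn had their highest mean level over libraries in SAMC, at 26.6 ± 14.5 and 60.1 ± 65.1 CPM (SD, n = 4). Emp1, Pdpn and Ecm1 had higher means in Macro_1 than in SAMC. Macro_1 had at least 30 cells in the brain 72 h library only, so its mean is that 1 library. Within that library SAMC stood above Macro_1, at 384.1 against 380.2 CPM for Emp1, 62.5 against 29.2 for Pdpn and 507 against 339 for Ecm1. Macro_1 stood above SAMC there for Thbs1 (1211 against 1042 CPM), Vim (1135 against 1021) and Capg (620 against 581). Ecm1 also had a higher mean in Granulo_1 (285 CPM) than in SAMC (243 CPM). Fn1, Thbs1 and Vim were higher in the Granulo_1 cluster than in SAMC in each of the 4 libraries that had both. Relative to the macrophage clusters (CAM_1, CAM_2, Macro_1 and Macro_2 summed), 5 of the 9 genes had a higher CPM in SAMC in all 4 libraries (Htr2b, Pdpn, Emp1, Ecm1 and Capg). Postn was higher in 3, and Fn1, Thbs1 and Vim were higher in 2 each. That count of 5 was 3 when each cell was thinned to 1000 UMIs, 2 when libraries with at least 10 SAMC entered, and 8 with the microglia clusters as the reference. No share of all genes stands beside it, because the members were picked on this contrast. With CAM_1, CAM_2 and Macro_2 each taken alone, only Htr2b and Capg were higher in SAMC in 4 of 4 libraries against every one. SAMC were higher in 3 of 4 for Pdpn and Ecm1 against CAM_2, Ecm1 against Macro_2 and Emp1 against CAM_1.

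**Figure D1:**
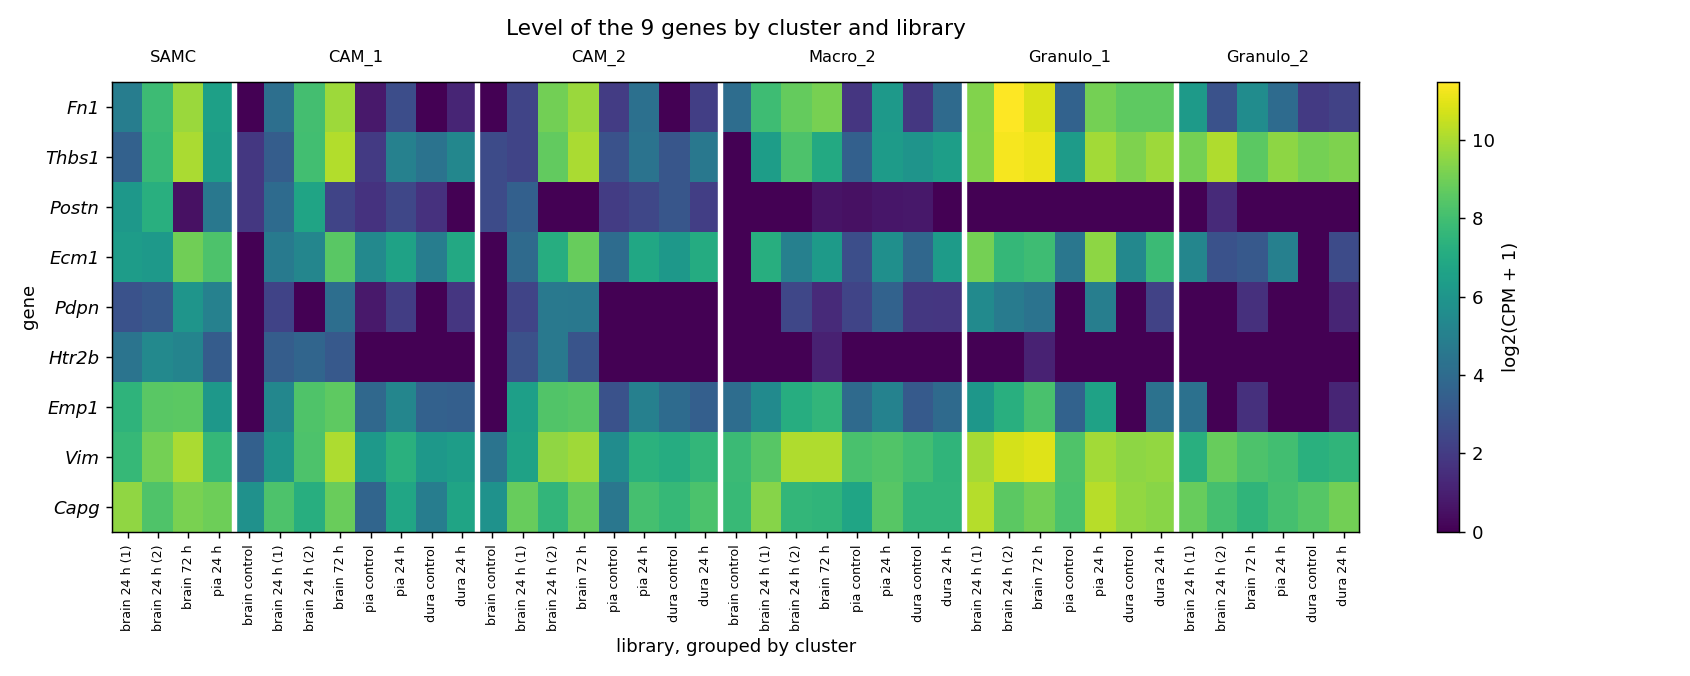
Heat map of the 9 genes (rows) in each library with at least 30 cells of the cluster (columns, grouped as SAMC, CAM_1, CAM_2, Macro_2, Granulo_1 and Granulo_2), coloured by log2(CPM + 1). Htr2b is dark outside SAMC and the CAM clusters of the stroke brain, whereas Fn1, Thbs1 and Vim are brightest in Granulo_1.

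Among the secreted proteins, Fn1 was highest in SAMC of the brain at 72 h and lowest in brain 24 h replicate 1. Fn1 stood at 28.1 CPM (26 UMIs, 95% Poisson interval 18.4 to 41.2) in brain 24 h replicate 1, 229.9 CPM (56 UMIs, 174 to 299) in replicate 2, 91.3 CPM (20 UMIs, 55.8 to 141) in the pia at 24 h and 855 CPM (1971 UMIs, 818 to 894) in the brain at 72 h. These intervals, like all below, cover counting error only. Over the genes compared, the brain 24 h replicates differed by more than counting error. The chi-square per degree of freedom was 21.9 in SAMC, 57.4 in the macrophage clusters and 32.2 in the granulocyte clusters. The 72 h value of Fn1 in SAMC lay above each 24 h value. The brain 24 h replicates, which are samples of 1 group, lay apart from each other for Fn1, at a ratio of 8.17 (5.05 to 13.6). At 72 h Fn1 was 30.4 (20.7 to 46.7) times replicate 1 but only 3.72 (2.85 to 4.94) times replicate 2. The macrophage clusters went the same way, with 30.3, 420.1 and 748 CPM in brain 24 h replicates 1 and 2 and the brain at 72 h, after 4.54 CPM in the control brain. In the Granulo_1 cluster Fn1 stood at 631, 2841 and 1785 CPM in those 3 brain libraries, so replicate 2 was the highest there. The log2 difference of SAMC from Granulo_1 was −2.92 ± 1.47 (SD, n = 4 libraries). Over all cells, 11.6% of Fn1 UMIs came from SAMC and 56.9% from Granulo_1.

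Thbs1 followed Fn1 closely. It stood at 10.8 CPM of SAMC (10 UMIs, 5.19 to 19.9) and 209 CPM (51 UMIs, 156 to 275) in the brain 24 h replicates, 82.2 CPM (18 UMIs, 48.7 to 129.9) in the pia and 1042 CPM (2400 UMIs, 1000.4 to 1084) at 72 h. The replicates again lay far apart, at 19.3 (9.71 to 42.7), a spread larger than the step from replicate 2 to 72 h, which was 4.98 (3.77 to 6.70). The macrophage clusters held 13.8, 325 and 704 CPM in the same brain libraries, and SAMC were above them in 2 of 4 libraries. Granulo_1 held 650.2, 2558 and 2272 CPM. Granulo_2, the cluster with neutrophil markers, held Thbs1 at 647 ± 243 CPM (SD, n = 6), while Fn1 ran from 2.90 to 74.4 CPM there. Platelets are known to store thrombospondin 1, and the platelet genes of the fixed list summed to 0 to 18.3 CPM in SAMC; their part in the Thbs1 level was not tested.

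Postn ran against the other matrix genes. SAMC held 64 UMIs of it in brain 24 h replicate 1 (69.2 CPM, 53.3 to 88.4), 36 in replicate 2 (148 CPM, 104 to 205) and 5 in the pia at 24 h (22.8 CPM, 7.41 to 53.3), against 1 UMI of 2304083 at 72 h (0.434 CPM, 0.0110 to 2.42). All 3 libraries at 24 h lay above the 72 h library, and no Poisson interval reached it. Replicate 1 was 159.6 (27.6 to 6399) times the 72 h library and replicate 2 341 (57.3 to 13818) times, and the width of these intervals comes from the single UMI. In the macrophage clusters Postn stood at 4.54 CPM in the control brain, 15.2 and 29.0 CPM at 24 h and 0.606 CPM at 72 h and was lowest at 72 h among the brain libraries there too. The control and 72 h values there rest on 3 UMIs each, so the order of these 2 is uncertain. Among the macrophage clusters CAM_1 held most Postn at 24 h, with 15.3 and 104 CPM in the replicates, against 10.4 and 0 CPM in CAM_2. Granulo_1 held 0 Postn UMIs in all 7 of its libraries, Granulo_2 held 1, and lymphoid cells reached 2.24 CPM in brain 24 h replicate 2. Of 289 Postn UMIs in annotated cells, 107 (37.0%) came from SAMC, 89 (30.8%) from the microglia clusters and 86 (29.8%) from the macrophage clusters. The microglia clusters held 32.4% of all cells and 24.7% of the UMIs of all genes, and SAMC 3.22% and 5.72%. Fibroblasts are a known source of periostin, and in SAMC the 7 fibroblast genes of the fixed list summed to 0 to 4.57 CPM. Among them Col1a1, Col1a2 and Col3a1 were at 0 and the others were not. The part of these genes in the Postn level was not tested.

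Ecm1 was high in the pia as well as at 72 h. SAMC held 79.0 CPM (73 UMIs, 61.9 to 99.3) and 73.9 CPM (18 UMIs, 43.8 to 117) in the brain 24 h replicates, 310.5 CPM (68 UMIs, 241 to 394) in the pia at 24 h and 507 CPM (1168 UMIs, 478 to 537) in the brain at 72 h. Unlike Fn1 and Thbs1, the replicates overlapped within counting error, and pia and 72 h brain both lay above them. The step from 24 h to 72 h was alike from either replicate, at 6.42 (5.06 to 8.25) and 6.86 (4.32 to 11.6) times. In the macrophage clusters Ecm1 went from 0 UMIs in the control brain to 32.6 and 52.4 CPM at 24 h and 296 CPM at 72 h. Stroke libraries were also above controls at the borders, where Ecm1 in the macrophage clusters was 4.25 (3.29 to 5.53) times control in the pia and 4.80 (3.48 to 6.77) times control in the dura. The dura 24 h library was made with another kit version than its control, so stroke and kit cannot be told apart there. Granulo_1 held 728 CPM in the pia at 24 h, 545 CPM in brain 24 h replicate 1 and 237 CPM in the brain at 72 h, and SAMC were above Granulo_1 in the 72 h library alone.

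**Figure D2:**
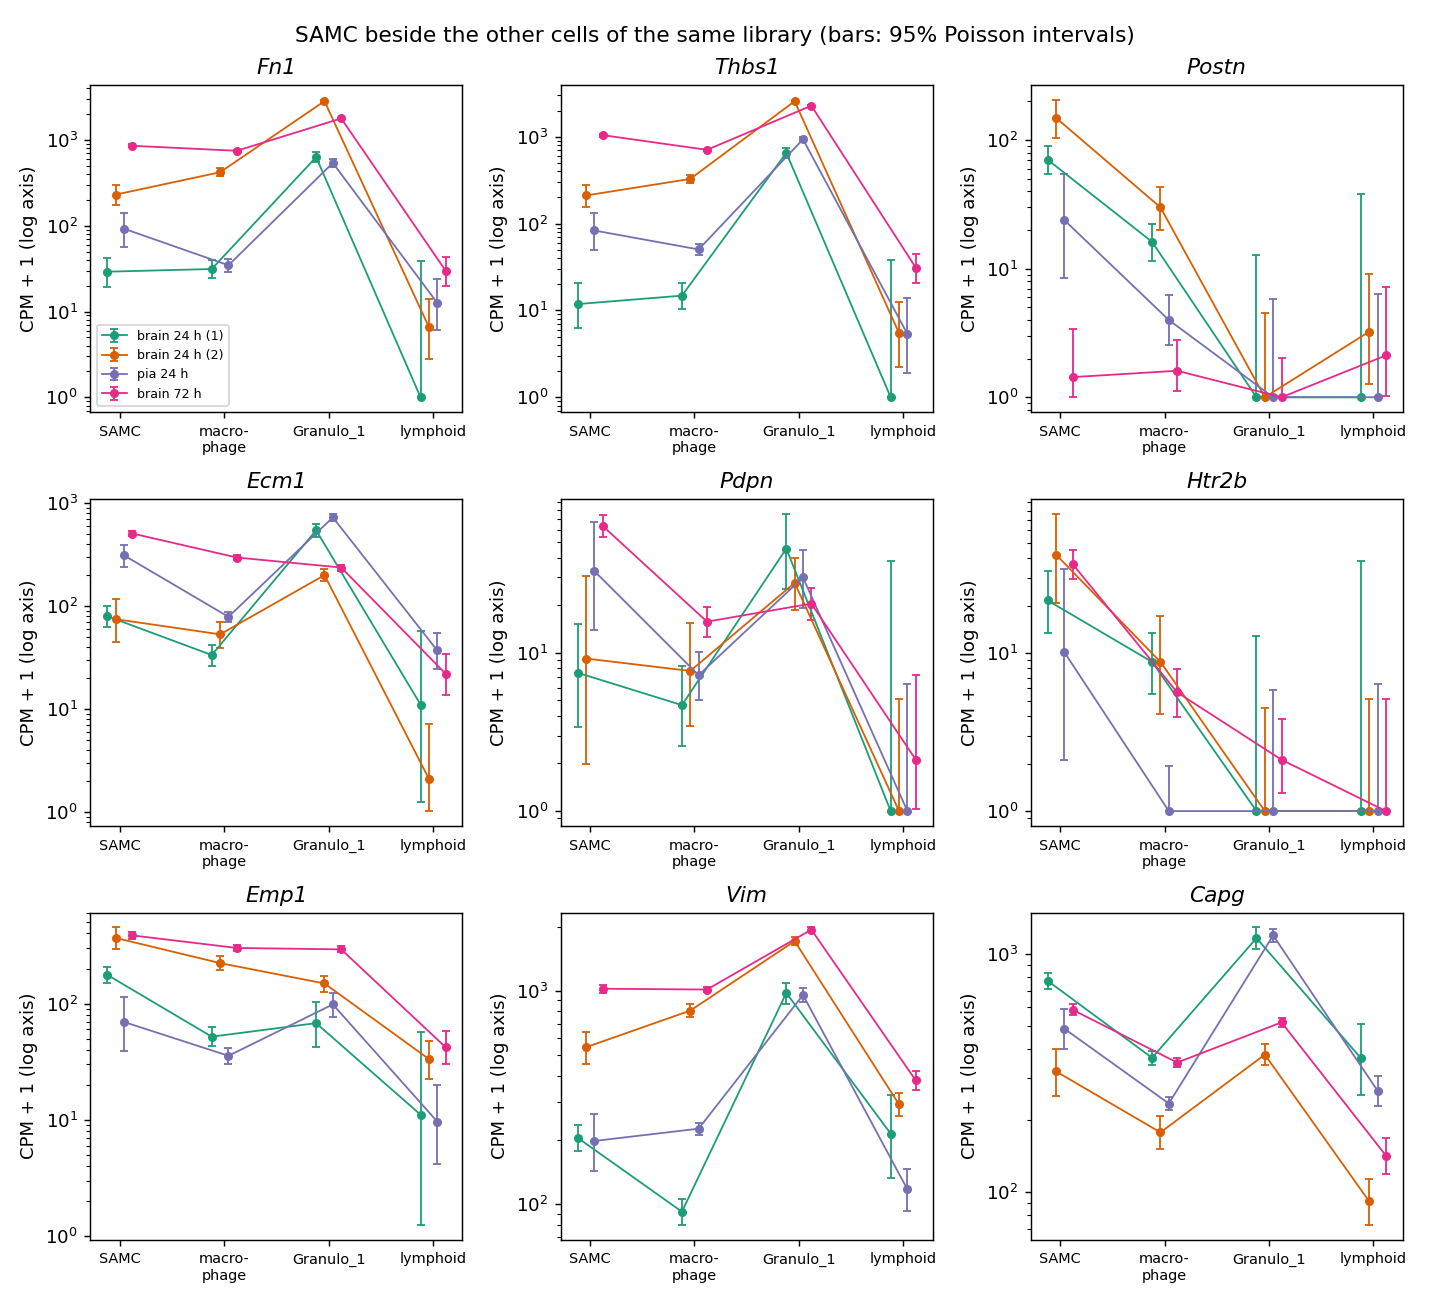
Level of each gene (CPM + 1, log axis) in SAMC, the summed macrophage clusters, Granulo_1 and lymphoid cells, with points of the same library joined by a line and bars for 95% Poisson intervals. Htr2b, Pdpn, Emp1, Ecm1 and Capg descend from SAMC to the macrophage clusters in all 4 libraries, and Fn1, Thbs1 and Vim peak in Granulo_1.

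Of the membrane proteins, Htr2b was the member with the narrowest range of cells. SAMC held 20.6 CPM (19 UMIs, 12.4 to 32.1) and 41.1 CPM (10 UMIs, 19.7 to 75.5) in the brain 24 h replicates, 9.13 CPM (2 UMIs, 1.11 to 33.0) in the pia and 35.6 CPM (82 UMIs, 28.3 to 44.2) at 72 h. The intervals of the brain libraries overlapped, and 72 h stood at 1.73 (1.04 to 3.02) and 0.867 (0.448 to 1.88) times the 24 h replicates. Its level ranked first among all clusters in each of the 4 libraries. Of 183 Htr2b UMIs in annotated cells, 113 (61.7%, exact binomial interval 54.3 to 68.8) came from SAMC, which were 3.22% of the cells and held 5.72% of the UMIs of all genes, 47 from macrophage clusters, 16 from microglia, 4 from Granulo_1 and 0 from lymphoid cells. The next highest mean was in the stress_Micro cluster of microglia, 6.91 ± 6.45 CPM (SD, n = 2), against 26.6 ± 14.5 CPM (SD, n = 4) in SAMC. The stress_Micro mean rests on 3 UMIs. In brain 24 h replicate 2, CAM_2 held 23.5 CPM (4 UMIs, 6.42 to 60.3) and CAM_1 12.5 CPM (3 UMIs, 2.57 to 36.5). Both intervals overlapped that of SAMC in the same library. Macrophage clusters held 7.81, 7.80 and 4.65 CPM in brain 24 h replicates 1 and 2 and at 72 h and 0 in the pia and dura libraries, and the SAMC difference from them was 2.22 ± 0.77 on the log2 scale (SD, n = 3, the pia with 2 against 0 UMIs left out). The other serotonin receptors and handling genes of a fixed list of 10 summed to 1.08 to 18.3 CPM in SAMC, with Htr1b, Htr2c, Htr3a and Tph1 at 0 UMIs.

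Pdpn was low in count in every cell type. SAMC held 6 UMIs (6.49 CPM, 2.38 to 14.1) and 2 UMIs (8.21 CPM, 0.994 to 29.7) in the brain 24 h replicates, 7 in the pia (32.0 CPM, 12.9 to 65.9) and 144 at 72 h (62.5 CPM, 52.7 to 73.6). The 72 h library was highest, and its interval lay clear of both brain 24 h replicates but met that of the pia. SAMC were above the macrophage clusters in 4 of 4 libraries, by 1.47 ± 0.93 on the log2 scale (SD, n = 4), while Granulo_1, with 44.6 and 26.7 CPM in the brain 24 h replicates, was above SAMC there and below them (19.5 CPM) at 72 h. Of 452 Pdpn UMIs, 159 (35.2%, 30.8 to 39.8) came from SAMC, 133 from macrophage clusters, 135 from Granulo_1 and 2 from lymphoid cells. Lymphatic endothelium is a known source of podoplanin, and the endothelial genes of the fixed list summed to 11.9 to 53.4 CPM in SAMC; their part in the Pdpn level was not tested.

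Emp1 was high in SAMC of the brain at both times and lower in those of the pia. It stood at 175 CPM (162 UMIs, 149 to 204) and 365 CPM (89 UMIs, 293 to 449.6) in the brain 24 h replicates, 384 CPM (885 UMIs, 359 to 410.3) at 72 h and 68.5 CPM (15 UMIs, 38.3 to 113) in the pia. The pia lay below all 3 brain libraries, and 72 h and replicate 2 overlapped. SAMC were above the macrophage clusters in 4 of 4 libraries, by 0.97 ± 0.60 on the log2 scale (SD, n = 4), with macrophage values of 51.0, 222, 299 and 34.6 CPM in brain 24 h replicates 1 and 2, brain 72 h and pia 24 h, and 1.51 CPM in the control brain. Emp1 ranked first among the clusters in both brain 24 h libraries and second in the pia and at 72 h.

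Vim and Capg, the cytoskeletal members, were broad. Vim stood at 203 and 542 CPM of SAMC in the brain 24 h replicates (188 and 132 UMIs), 196 CPM in the pia (43 UMIs) and 1021 CPM at 72 h (2352 UMIs). It was above each 24 h value at 72 h, at 5.02 (4.32 to 5.85) and 1.88 (1.58 to 2.26) times the brain replicates. Macrophage clusters went from 33.3 CPM in the control brain through 90.9 and 806 CPM to 1012 CPM at 72 h. SAMC lay below Macro_2 in 4 of 4 libraries, by 0.67 ± 0.39 on the log2 scale (SD, n = 4), and below Granulo_1 in 4 of 4. Lymphoid cells, which are known to express vimentin, held 213, 292, 116 and 379 CPM in brain 24 h replicates 1 and 2, pia 24 h and brain 72 h, so Vim in SAMC exceeded that level clearly only in replicate 2 and at 72 h. SAMC of the pia stood higher as well, at 196 against 116 CPM, but on 43 UMIs.

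Capg had the steadiest difference from the macrophage clusters, 0.93 ± 0.16 on the log2 scale (SD, n = 4), with SAMC higher in 4 of 4 libraries. In SAMC it stood at 769 CPM (711 UMIs, 714 to 828) and 320.2 CPM (78 UMIs, 253 to 399.6) in the brain 24 h replicates, 484 CPM (106 UMIs, 396 to 585) in the pia and 581 CPM (1339 UMIs, 550.4 to 613) at 72 h. Here replicate 1, the lower library for Fn1, Thbs1 and Vim, was the highest, and 72 h lay between the replicates, at 0.755 (0.689 to 0.829) and 1.81 (1.44 to 2.31) times them. The highest mean of Capg over libraries was in gamma delta T cells, 918 ± 427 CPM (SD, n = 4), and SAMC at 539 ± 188 CPM (SD, n = 4) came after 3 other clusters. Lymphoid cells as a whole held 364, 90.6, 265 and 141 CPM in brain 24 h replicates 1 and 2, pia 24 h and brain 72 h, below SAMC in each.

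Taken cluster by cluster, most macrophage clusters stood near SAMC at 72 h for Fn1 and Thbs1 and below SAMC for Htr2b and Pdpn. In the brain at 72 h Fn1 stood at 886 CPM in CAM_1, 859.9 in CAM_2, 807 in Macro_1 and 561 in Macro_2, beside 855 CPM in SAMC. Thbs1 stood at 1133, 1028 and 1211 CPM in CAM_1, CAM_2 and Macro_1, beside 1042 CPM in SAMC, and at 124 CPM in Macro_2. Macro_2 was thus the macrophage cluster set apart for Thbs1 at 72 h, and it was low for Ecm1 as well, at 75.2 CPM against 368 in CAM_1 and 448 in CAM_2. Over all libraries Ecm1 in Macro_2 reached 145 CPM, and SAMC lay above Macro_2 for it in 3 of 4 libraries. Htr2b in the same library stood at 8.36 CPM in CAM_1, 6.98 in CAM_2, 0 in Macro_1 and 1.07 in Macro_2, beside 35.6 CPM in SAMC. Pdpn stood at 16.7, 23.4 and 29.2 CPM in CAM_1, CAM_2 and Macro_1, below SAMC in each.

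Across the border libraries, the macrophage clusters held less Fn1 and Emp1 than those of brain 24 h replicate 2 and the brain at 72 h. Compared with brain 24 h replicate 1, the pia at 24 h was lower for Emp1 but not for Fn1 or Vim. No border library was taken at 72 h. In the macrophage clusters of pia and dura Fn1 ran from 1.83 CPM (dura control) to 33.6 CPM (pia 24 h), and Emp1 from 9.17 to 34.6 CPM in the same libraries. Thbs1 was already present in the control dura, at 49.1 CPM, against 7.97 CPM in the control pia and 3.02 CPM in the control brain. Capg stood at 75.1 and 235 CPM in the control and 24 h pia and at 149.5 and 172 CPM in the dura, a larger step in the pia than in the dura. Vim did not share that step, at 198 and 224 CPM in the pia and 206 and 151 CPM in the dura. In Granulo_1 the control dura already held 395 CPM of Fn1, 613 of Thbs1 and 725 of Vim, whereas the control pia, with 55 such cells, held 11.1, 77.5 and 321 CPM. The pia at 24 h held 539.5, 932 and 954 CPM of these 3 genes. SAMC in the pia at 24 h lay below SAMC in both brain replicates for Postn, Emp1, Htr2b and Vim and above both for Ecm1 and Pdpn, and for Fn1, Thbs1 and Capg the pia fell between the replicates. The intervals of pia and brain overlapped for Htr2b and Pdpn with both replicates and for Vim with replicate 1. SAMC of the pia also held the most Pf4, Lyve1 and Mrc1, so SAMC of pia and brain may differ in the cells they hold. The part of this in the differences between pia and brain was not tested.

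How many SAMC carried a UMI was compared at 1 depth, since SAMC medians were 3154 and 1179.5 UMIs in the brain 24 h replicates, 1957 in the pia and 4606 at 72 h. After each cell was thinned to 1000 UMIs, which left out 16, 46, 18 and 10 shallower SAMC in that order, 285, 74, 77 and 475 SAMC remained. Emp1 was found in 15.4% and 21.6% of SAMC in the brain 24 h replicates, 3.90% in the pia and 34.3% at 72 h, against 1.82%, 2.93%, 0.901% and 2.60% of lymphoid cells, whose medians before thinning were 1222, 1877, 1059 and 1180.5 UMIs. Ecm1 was found in 5.96% and 5.41% of SAMC at 24 h in the brain, 16.9% in the pia and 38.3% at 72 h, against 1.82%, 0.267%, 2.10% and 1.42% of lymphoid cells. Both shares were higher in SAMC than in lymphoid cells in each library, but the exact intervals overlapped for Emp1 in the pia (3 of 77 SAMC) and for Ecm1 in brain 24 h replicate 1. Lymphoid cells are a comparison here and need not lack either gene. Fn1 was found in 1.40% and 8.11% of SAMC in the brain 24 h replicates, 6.49% in the pia and 47.8% at 72 h, and Thbs1 in 1.05%, 6.76%, 6.49% and 49.1%, with Fn1 in 0 to 1.65% of lymphoid cells. Postn was found in 5.26% and 10.8% of SAMC in the brain 24 h replicates and in 0 of 475 at 72 h, and 0 counts allow, at a floor of 3 counts, a share of up to 0.632% of cells with a Postn UMI at this depth, which does not limit the share of cells that express it. Vim was in 15.4%, 24.3%, 12.99% and 53.7% of SAMC and in 14.5%, 23.5%, 12.6% and 30.0% of lymphoid cells, so at 24 h its share in SAMC was at that of lymphoid cells. Without thinning, 73.0% of SAMC at 72 h had a UMI of Emp1, 76.9% of Ecm1, 76.7% of Fn1 and 70.1% of Thbs1.

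**Figure D3:**
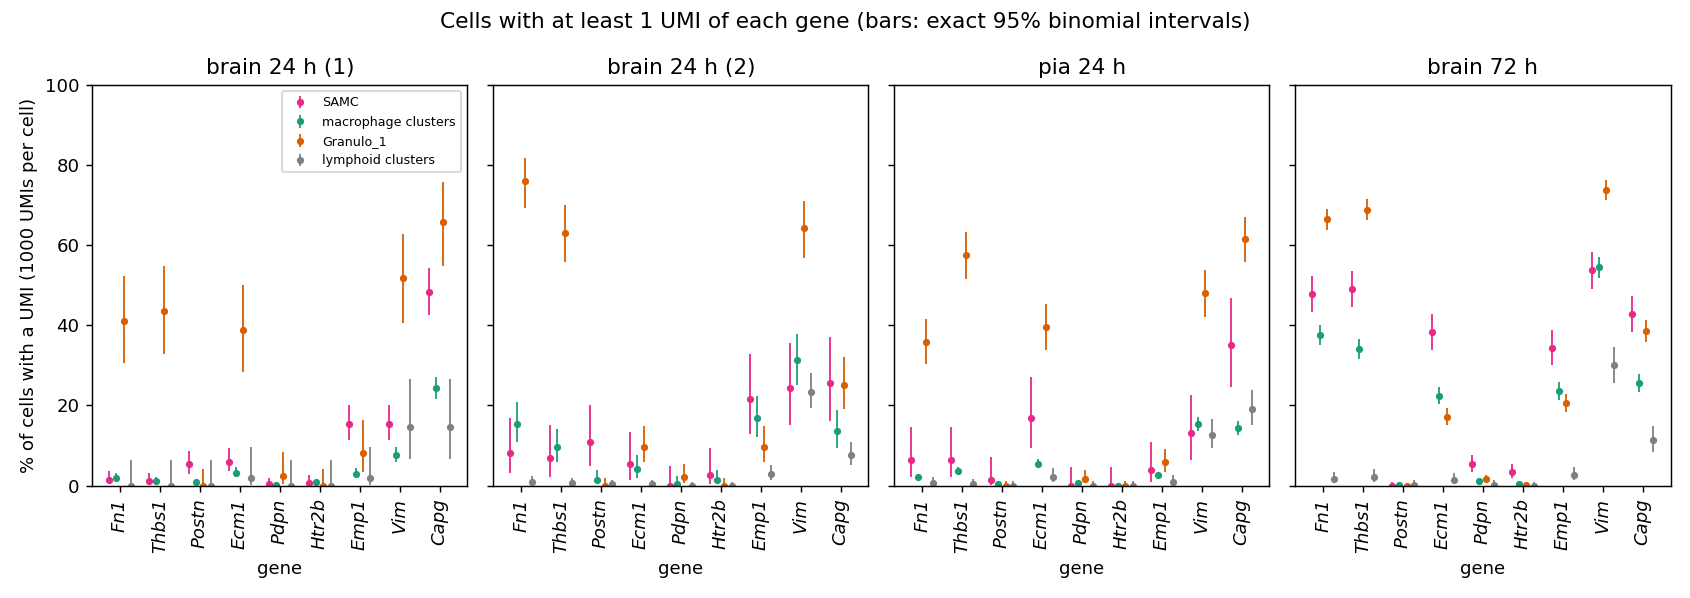
Share of cells (percent) with at least 1 UMI of each gene after thinning every cell to 1000 UMIs, in SAMC, the macrophage clusters, Granulo_1 and lymphoid cells of the 4 libraries with at least 30 SAMC, with exact binomial 95% intervals as bars. At 72 h the shares of Fn1, Thbs1, Ecm1 and Emp1 in SAMC lie far above those in lymphoid cells, Postn is at 0, and Granulo_1 leads for Fn1, Thbs1 and Vim in each library.

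The time course was tested inside the macrophage clusters, the granulocyte clusters and SAMC with edgeR's quasi-likelihood test on summed UMIs, adjusting for tissue, with all genes of a fit in 1 Benjamini-Hochberg adjustment. Calls needed both a change of 2 times or more and an adjusted p below 0.05. The background share called was 0% in each of the 5 comparisons, so 0 members were called, in either direction. At an unadjusted p under 0.05 stood 468 of 10887 genes for 24 h against control and 790 for 72 h against 24 h in macrophage clusters, 155 and 144 of 8294 in granulocyte clusters, and 277 of 7641 for 72 h against 24 h in SAMC. DESeq2 on the same sums called 18 (0.165%), 94 (0.863%), 5 (0.0603%), 10 (0.121%) and 35 (0.458%) in that order. The designs left 3 residual degrees of freedom in the macrophage, 2 in the granulocyte and 1 in the SAMC fit.

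**Figure D4:**
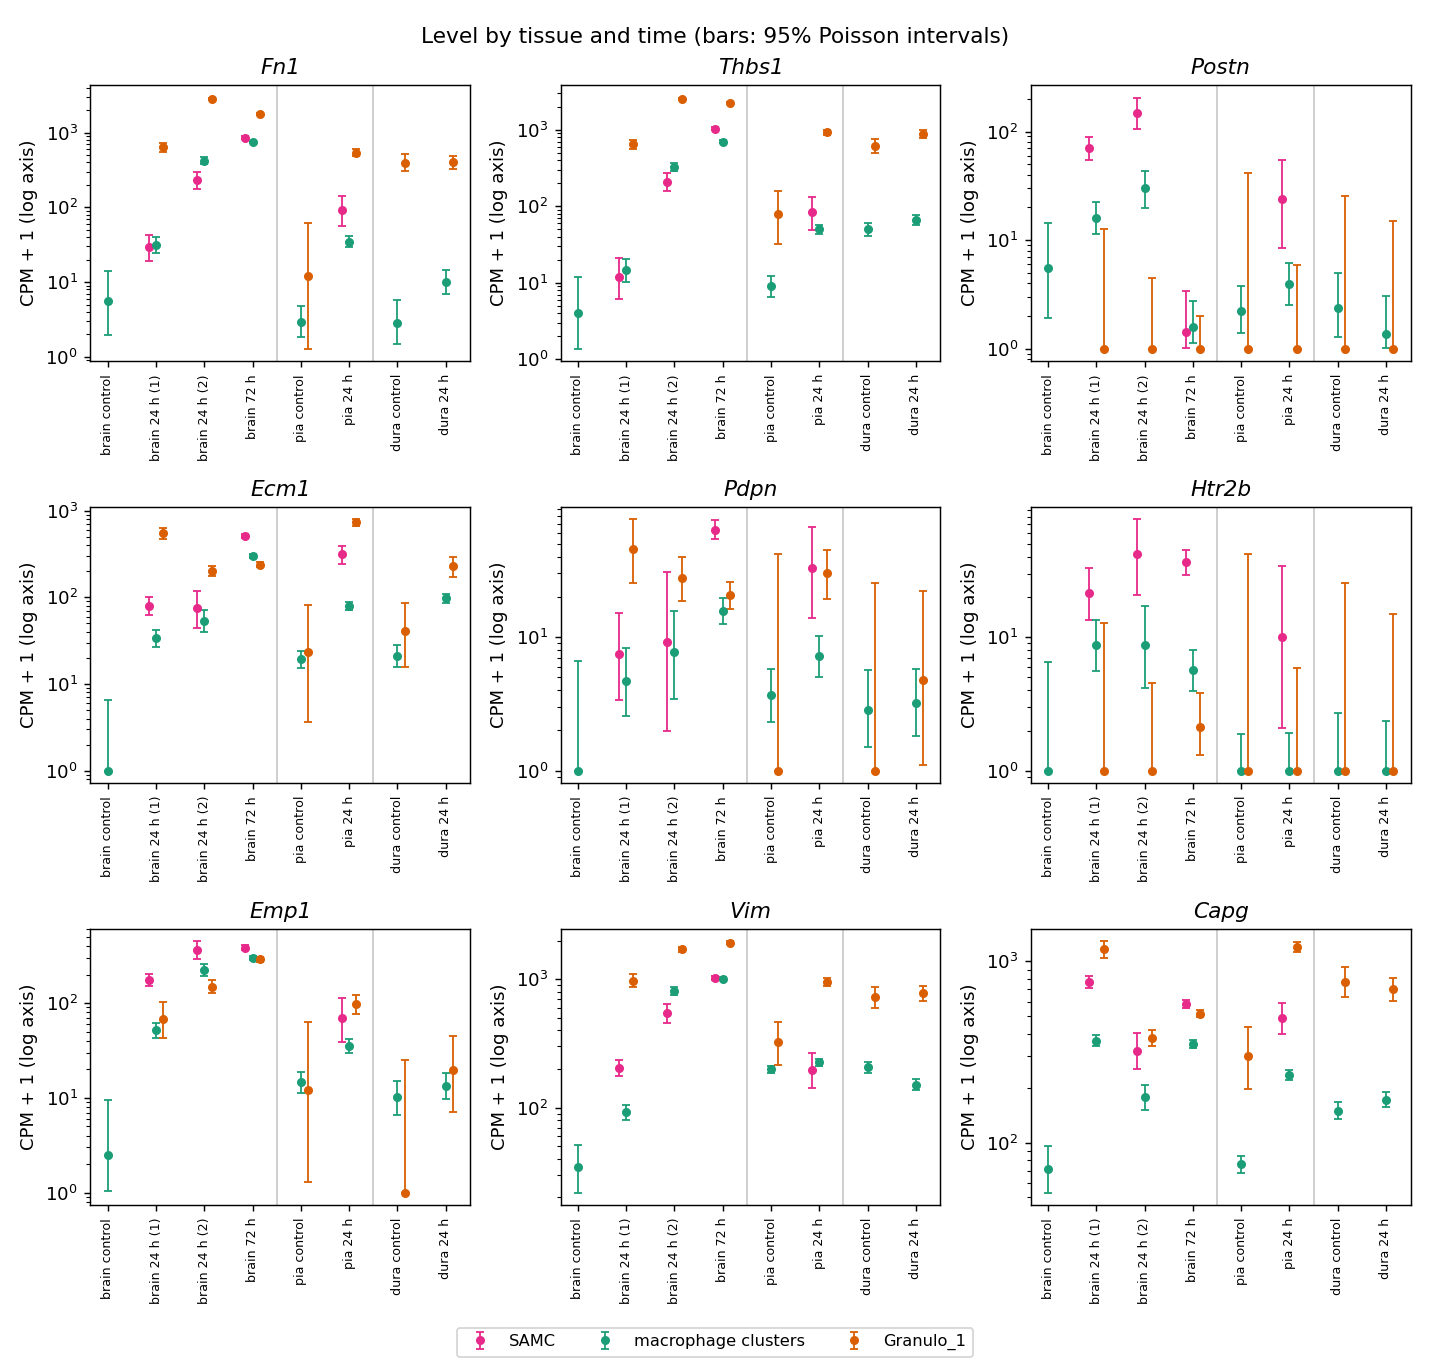
Level of each gene (CPM + 1, log axis) in control, 24 h and 72 h libraries of brain, pia and dura, in SAMC, the macrophage clusters and Granulo_1, with 1 point per library and 95% Poisson intervals as bars. Ecm1 and Fn1 are higher after MCAO than in controls in macrophage clusters of all 3 tissues, and Postn in SAMC is lowest at 72 h.

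For 24 h against control in the macrophage clusters, all 9 members had a positive log2 difference, with a median of 2.01 (1.25 with Htr2b, at 0 UMIs in every control, held at its bound) against 0.06 over all genes tested. Several members were picked as raised in SAMC, which lay mainly in the stroke libraries of these data. The shared direction and the median, here and for the granulocyte clusters and 72 h below, are thus not independent of this choice. Fn1 had 4.03 ± 1.09 (SE) and Ecm1 2.66 ± 0.62 (SE), and both missed the threshold in edgeR's test at an adjusted p of 0.985 while DESeq2 called both (adjusted p 0.0033 and 0.0011). Both were also called by edgeR without brain 24 h replicate 2, where 2.23% of all genes were. With no filter on low counts edgeR called Emp1, Ecm1, Fn1 and Thbs1 (0.382% of genes called), and in Macro_2 alone it called Fn1 (0.0207%). The direction of Fn1 was the same in each tissue: the macrophage clusters of the pia stood at 17.4 (8.58 to 41.1) times and those of the dura at 5.002 (1.73 to 19.8) times control. Each dura ratio sets a library of kit version 3 against a control of version 2, so stroke and kit cannot be told apart in it. Thbs1 had 2.47 ± 1.29 (SE), with 6.19 (4.26 to 9.23) times control in the pia and 1.32 (1.04 to 1.70) times in the dura. Emp1 had 2.01 ± 1.01 (SE), Capg 1.25 ± 0.49 (SE) and Vim 0.95 ± 1.07 (SE). Vim had no shared direction across tissues, at 1.13 (1.03 to 1.25) times control in the pia and 0.732 (0.639 to 0.839) times in the dura, and its sign turned to −0.17 without the control brain. The microglia markers P2ry12 (4830 CPM) and Tmem119 (2866 CPM) were high in the macrophage clusters of the control brain and lower in brain 24 h replicate 1 (532 and 1182 CPM), and their part in the brain differences was not tested.

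In the granulocyte clusters (Granulo_1 and Granulo_2 summed) 7 members were tested at 24 h, all with a positive difference from control, with a median of 1.95 (1.70 with Pdpn, at 0 UMIs in every control, held at its bound) against 0.10 over all genes. Granulo_1 held 1302 of the 1305 Emp1 UMIs of these clusters, 1851 of 1869 for Ecm1 and 10171 of 10208 for Fn1. For these genes the sums thus describe Granulo_1 and not Granulo_2, whereas Granulo_2 held 849 of 4703 Capg UMIs. Ecm1 had 3.66 ± 0.90 (SE, edgeR adjusted p = 0.997) and Emp1 3.68 ± 1.17 (SE), and neither was called. Ecm1 was called with no filter on low counts, where 0.035% of genes were. Fn1 in Granulo_1 was 48.7 (8.70 to 1929) times control in the pia on 1 control UMI, whereas in the dura it stood at 395 and 398 CPM before and after. Emp1, Ecm1 and Thbs1 passed the threshold when either brain 24 h replicate was left out (1.07% and 1.32% of genes called without replicates 1 and 2). For 72 h against 24 h, leaving out replicate 1 called 0.864% of genes and 0 members, and leaving out replicate 2 called 10.8%, Emp1 and Thbs1 among them.

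From 24 h to 72 h, 7 of 9 members were higher in the macrophage clusters, with a median log2 difference of 1.90 against 0.00 over all genes. Ecm1 had 3.27 ± 0.73 (SE) and Postn −4.64 ± 1.19 (SE), both at an edgeR adjusted p of 0.670, and DESeq2 called Ecm1 (adjusted p 0.0066). Without brain 24 h replicate 2 the edgeR test called 39.2% of all genes, among them 6 members higher (Pdpn, Emp1, Ecm1, Fn1, Thbs1 and Vim) and Postn lower, so that this library moves the count for all genes and for the members. With all libraries and no filter on low counts it called 1.64% of genes, among them Emp1, Ecm1, Fn1 and Thbs1 higher and Postn lower, so the filter moves it too. In SAMC 8 of 9 members were higher at 72 h, with a median of 1.67 against −0.10 over all genes: Thbs1 had 3.61 ± 1.19 (SE), Pdpn 3.19 ± 1.32 (SE), Fn1 3.05 ± 1.17 (SE), Ecm1 2.82 ± 1.17 (SE) and Vim 1.67, and Capg had the smallest positive value, 0.11. The brain 72 h library held 485 of the 1044 SAMC, and several members were picked as raised in SAMC. Their median beside that of all genes is thus a description that is not independent of this choice. Postn had −7.37 ± 1.95 (SE, edgeR adjusted p = 0.128) and was called lower by DESeq2 (adjusted p 0.0093). In the granulocyte clusters 4 of 7 members were higher, with a median of 0.25 against 0.01, led by Emp1 at 1.54, and Ecm1 (−0.74), Pdpn (−0.80) and Capg (−0.79) had negative values. The brain 72 h library is the only one at that time and the only brain library made with kit version 3, so time, library and kit cannot be told apart. It shares its gene list with brain 24 h replicate 2 alone, and the part of the gene list in these differences was not tested.

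Other genes of these pathways, from lists set with earlier results of these data known, gave 0 calls in each comparison by the edgeR test. Of 27 matrix glycoproteins and proteoglycans, 14 were tested in the macrophage clusters, with a median log2 difference of 0.13 at 24 h against control and 1.63 at 72 h against 24 h, and 8 in SAMC, with a median of 1.81 at 72 h. Of 18 integrins and other matrix receptors, 17 were tested in the macrophage clusters (medians 0.63 and 0.94) and 13 in SAMC (0.66). Genes of crosslinking, TGF-beta and plasminogen had medians of 0.26 and −0.06 in the macrophage clusters (18 of 23 tested) and −0.15 in SAMC (12 tested). Actin capping and severing and intermediate filament genes, which do the same kind of work as Capg and Vim, had medians of 0.04 and 0.76 in the macrophage clusters and 0.49 in SAMC (23 of 23 tested in each). In the granulocyte clusters the same 4 lists had medians of 0.94, 0.39, 0.26 and 0.25 at 24 h against control. The smaller lists were thinly measured: of 4 Emp and Pmp22 family genes 3 were tested in the macrophage clusters (medians 0.52 and −3.30), and of 10 serotonin genes 1. None of these lists holds a member. Lists of other cell types were found at levels that in part exceeded those of the less abundant members. In the macrophage clusters the fibroblast genes summed to 0 to 43.6 CPM, highest in the control dura, with 0.459, 4.46 and 2.02 CPM in the stroke brain libraries. Mesothelial and arachnoid genes summed to 0.459, 32.3 and 25.5 CPM in those libraries, and in SAMC to 0 to 4.11 CPM. Astrocyte and oligodendrocyte genes summed to 19.5 to 127 CPM in SAMC, and in the macrophage clusters to 151 CPM in the control brain and 155 CPM in brain 24 h replicate 2. In SAMC they and the endothelial genes were highest in brain 24 h replicate 2, where Fn1, Thbs1 and Postn stood above replicate 1; the part of these lists in the members' levels was not tested.

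Across 42 sums of a library and a SAMC, macrophage or granulocyte cluster, the genes whose levels followed each member most closely were read from Spearman correlations of log2(CPM + 10). These sums share libraries and depth, and the libraries differ in gene list and kit version, so the values are a description. The part of gene list and kit in them was not tested. Htr2b went most closely with Myo1e (0.784), Rpn1 (0.782) and Sgpl1 (0.76), and Pdpn with Gpnmb (0.768), itself a SAMC marker, Rufy1 (0.754) and Gas2l3 (0.741). Emp1 went with Mmp14 (0.868), a membrane-bound matrix metalloproteinase, Rps2 (0.865) and Vat1 (0.858). Ecm1 went with Cstb (0.87), Tgfbi (0.846), a matrix protein that TGF-beta induces, and Arg1 (0.83), arginase 1. Vim went with Rps27a (0.888), S100a4 (0.868) and Fn1 (0.868). Thbs1 went with Msrb1 (0.91), Cd44 (0.874), the hyaluronan receptor, and Chil3 (0.872). Fn1 went with Taf10 (0.901), Vim (0.868) and Rps27a (0.854), and Capg with Adssl1 (0.889), Lgals3 (0.857), which encodes galectin 3, and Pkm (0.83). Postn went with Akt1s1 (0.776), Trim47 (0.771) and Fcrls (0.762), a gene known from microglia. Among the members themselves, Fn1 and Vim were the closest pair (0.868), while Postn and Thbs1 ran opposite (−0.523).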

How the data were processed

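Counts per gene and cell were made by the authors with Cell Ranger 6.0 on mm10, per the submitters' processing notes, and deposited as unnormalized UMI counts with their cluster annotation, from which they had removed doublets. The annotation holds 32457 cells, the total in the study's results; its methods give a larger one. The control pia library, whose title names brain parenchyma, was grouped by its tissue label. UMIs were summed per library and cluster over the 30406 identifiers present in all libraries. Members and gene lists were chosen with earlier results of these data known; other genes named are the 3 nearest by correlation and markers of other cell types. Time was tested with edgeR 4.0.16 (quasi-likelihood, TMM, design of tissue and time) in R 4.3.3, with DESeq2 1.42.0 as an alternative, after tests on simulated data. Each ratio of counts has an exact binomial interval at 95%. A log2 ratio with at most 3 UMIs on both sides was left out, and 0.5 was added to each count; the floor, the ratios between times and the markers per library were chosen after seeing values.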

Additional observations from a re-analysis of the deposited data

Results flagged for a closer look

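In 3 results the sign of the log2 ratio of 24 h to control differed between tissues, and none of these differences between tissues was tested. Vim in the macrophage clusters had log2 ratios to control of 1.42 and 4.57 in brain 24 h replicates 1 and 2, 0.18 in the pia and −0.45 in the dura. Fn1 in the granulocyte clusters had 5.16 in the pia, on few control UMIs, and −0.25 in the dura. Vim in the granulocyte clusters had 1.47 in the pia and −0.0035 in the dura, the latter a value near 0. In the dura, Granulo_1 made up 66 of 212 cells of the granulocyte clusters in control and 109 of 468 at 24 h. Within Granulo_1 of the dura Vim stood at 725 and 778 CPM and Fn1 was alike before and after. The part of this cluster mix was not tested. The dura 24 h library also differs from its control in kit version, so time and kit cannot be told apart there.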

How the results depend on the processing

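The edgeR test called 0 genes in each of the 5 comparisons, in the order 24 h against control in macrophage and granulocyte clusters, 72 h against 24 h in the same, and 72 h against 24 h in SAMC. DESeq2 called 18, 5, 94, 10 and 35, and a fit with no filter on low counts called 70, 6, 300 and 7 in the first 4, with members among the first 3 (4, 1 and 5). For 24 h in macrophages, CAM_2 alone gave 1 and Macro_2 alone 2; for 72 h, CAM_1 alone gave 16, CAM_2 alone 11 and Granulo_2 alone 2; in SAMC, scaling by library size alone gave 6. Leaving out 1 library in turn gave 0 to 239, 0 to 102, 0 to 4188 and 1 to 831. Brain 24 h replicate 2 was left out in the highest of each (239, 102, 4188 and 831), and without replicate 1 the granulocyte counts were 89 and 72; the cause was not tested. In SAMC the one fit that could be made without a library, that of the pia, gave 0 calls. The count of members higher in SAMC than in macrophages was 5, with 2, 8 and 3 under the other settings (at least 10 SAMC, microglia as reference, thinned cells) and 5 to 6 without 1 library. Some log2 differences of members changed sign: Vim −0.17 (macrophages, 24 h, without the control brain; up to 1.90 without other libraries), Fn1 −0.096 and −0.094 (granulocytes, 24 h, without the control or 24 h pia; up to 5.76 without the control dura), Pdpn −0.78, Thbs1 −0.41 and Capg −0.997 (72 h, Macro_2 alone), Thbs1 −1.41 and Vim −0.35 (72 h, Granulo_2 alone), and Ecm1 0.56, Fn1 −0.34, Thbs1 −0.13 and Capg 0.33 (granulocytes, 72 h, without brain 24 h replicate 1; −1.32, 1.37, 1.54 and −1.31 without replicate 2). No paired analysis was possible because only brain at 24 h has a second replicate number.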
